A study of Mus musculus with 18 samples.

Results

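Genes of the angiotensin and endothelin systems, together with endothelial nitric oxide synthase, were followed in kidney and liver of mice with toxic liver failure. The 9 genes were chosen by symbol for their bearing on renal blood flow: Agt, Ace, Agtr1a, Enpep, Mme, Edn1, Ednra, Ednrb and Nos3. Each gene was read from the probe set that is annotated to it alone and has the highest mean over all 18 arrays. Of the 18193 genes that had such a probe set, 8 were members of the list; Ednra was not analysed because the annotation used here named no probe set for it. Of these 8, 7 passed the filter on dim signal in every fit, and Edn1 did not.

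The mice were C57BL6 males, and D-galactosamine (GalN), a toxin that depletes uridine nucleotides in hepatocytes, was given into the peritoneum at 4.5 g/kg. Kidney and liver were taken at 24 h or at 48 h after GalN, and sham mice received saline and were taken at 24 h, so both GalN times were compared with the same sham arrays and no sham group of 48 h was included. The animals carried no genetic alteration that the labels name, and both organs were perfused with buffer before whole tissue was homogenised. There were 6 groups of 3 arrays, lettered A, B and C; the series text can be read as 1 mouse per array or as mixed RNA, so p-values measure the spread between arrays.

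Angiotensinogen, a plasma protein made mainly by hepatocytes, is cut by renin and then by angiotensin-converting enzyme to angiotensin II, which constricts vessels and retains sodium through the type 1 receptor. Aminopeptidase A and neprilysin, both abundant on the brush border of the proximal tubule, convert or degrade angiotensins and other peptides. Endothelin-1 constricts through its A receptor, while the B receptor on endothelium clears endothelin and couples to nitric oxide release by endothelial nitric oxide synthase.

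All values are deposited log2 gcRMA signals, so a difference of 1 is a 2-fold difference in signal; a value describes 1 probe set and is not set against that of another gene. The lowest value in the table was 2.213, and each array had 58.03% to 59.16% of its values less than 1 above that, a range called near the floor here. Array medians lay between 2.362 and 2.43, and arrays of the same group correlated at 0.983 to 0.998. The third liver array at 48 h, liver 48 h C, stood apart: its beta-actin 3′ to 5′ probe set gap was 2.556 against 1.482 to 2.016 on the other arrays, and its median correlation with its own group was 0.9835. The tissues carried their defining transcripts: Umod read 15.68 to 15.97 in kidney and 2.768 to 3.362 in liver, and Alb read 16.15 to 16.56 in liver and 7.446 to 8.44 in kidney.

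Agt, Enpep and Mme, which all read lower in liver at 48 h, are shown by the 100 bases just before their annotated start in RefSeq (GRCm38.p6), 5′ to 3′ on the gene's strand, with matches to TATAAA or CCAAT on either strand in capitals.
Agt (chr8:124569707-124569806, minus strand): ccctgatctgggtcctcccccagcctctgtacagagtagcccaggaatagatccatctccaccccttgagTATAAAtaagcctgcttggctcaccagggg
Enpep (chr3:129332750-129332849, minus strand): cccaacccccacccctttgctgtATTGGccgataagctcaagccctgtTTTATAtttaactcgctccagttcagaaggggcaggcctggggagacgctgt
Mme, first of 3 annotated starts (chr3:63295111-63295210, plus strand): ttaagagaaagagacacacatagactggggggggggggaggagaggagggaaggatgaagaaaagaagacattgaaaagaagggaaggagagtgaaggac
The TATAAA match of Agt began 30 bases before the start on the gene's own strand. In Enpep the TATAAA match lay on the other strand and began 52 bases before the start, and a CCAAT match on that strand began 77 bases before it. These 100 bases of Mme held neither, whereas those before its second start held CCAAT matches that began 46 and 5 bases before that start. The 7 members with an entry had 10 windows of 250 bases before the start. TATAAA was present in 3 of 10, against 12.4% of 32851 RefSeq windows, and CCAAT in 6 of 10, against 33.8%. The motifs overlapped in 0 member windows. Windows of the same gene can themselves overlap, so the 10 are not separate units. For Mme, the CCAAT match given above as 5 bases before a start lay 228 bases before the last start. That site was counted in both windows, so 6 of 10 is not a count of separate sites.

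In the sham animals, all 7 tested members differed between kidney and liver, where 47.6% of all 12467 genes did (limma over 18 arrays, Benjamini-Hochberg adjusted p under 0.05, the threshold used throughout). Agt was lower in kidney by 4.03 ± 0.22 (SE), or 16.4-fold (adjusted p = 7.6e-10), and Agtr1a, the type 1 angiotensin receptor, was lower in kidney by 0.98, or 1.97-fold (adjusted p = 8.6e-04). The peptidases were higher in kidney: Mme by 2.51 or 5.71-fold, Enpep by 1.25 or 2.38-fold, and Ace by 3.73, which is at least 13.2-fold because 2 of the 3 sham liver arrays held an Ace reading that recurs identically on another array. Nos3 was higher in kidney by 0.79 ± 0.16 (adjusted p = 7.2e-04). All 3 sham liver arrays were near the floor for Nos3, so its difference is only a bound. Ednrb was higher in kidney by 0.71 ± 0.27 (adjusted p = 0.043), and that difference was not called without kidney sham C (0.49, adjusted p = 0.19), without liver sham A (0.58, adjusted p = 0.15) or without liver sham B (0.74, adjusted p = 0.076), nor when any of kidney 24 h A, B or C, kidney 48 h A or B, or liver 48 h A was left out of the shared estimate of spread (adjusted p between 0.050 and 0.054). It was also not called with quantile normalization (0.53, adjusted p = 0.11), median centring (0.49, adjusted p = 0.13), the mean over all probe sets (0.38, adjusted p = 0.063) or no filter (adjusted p = 0.070).

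**Figure D1:**
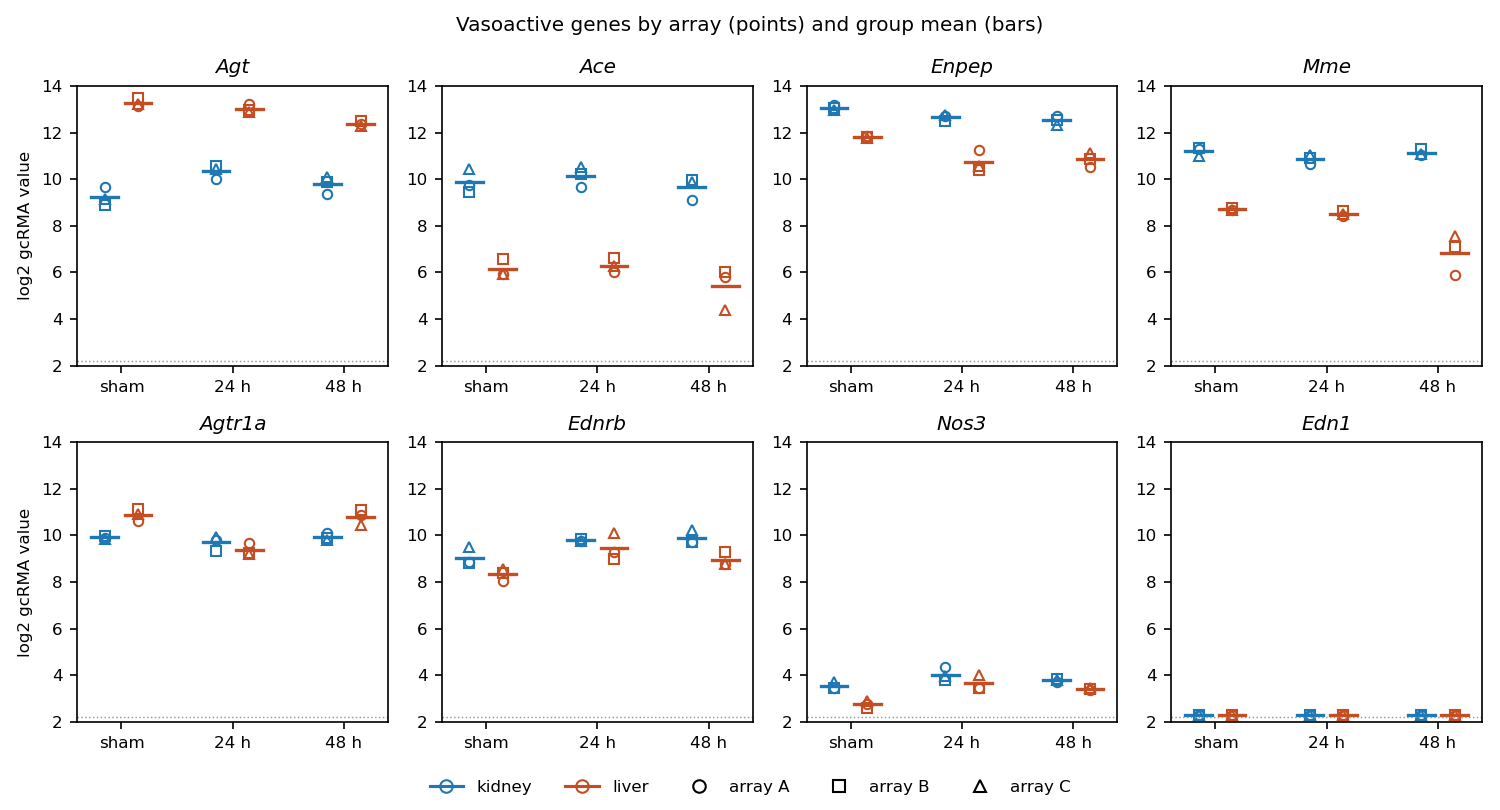
Log2 gcRMA value (vertical axis) of 8 vasoactive genes in sham, 24 h and 48 h groups; each point is an array, marked by its letter, each bar a group mean of 3 arrays, blue is kidney, orange is liver, and the dotted line is the lowest value of the members' probe sets. Agt lies higher in liver and the peptidases higher in kidney, Agtr1a dips in liver at 24 h, and Edn1 sits at 2.28 on every array.

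In liver, Enpep and Nos3 were called against sham at both times, Agtr1a and Ednrb only at 24 h, and Agt and Mme only at 48 h. Of the 7 tested members, 2 were lower (Agtr1a and Enpep) and 2 higher (Ednrb and Nos3) at 24 h than in sham liver, beside a background of 15% of all 12071 genes lower and 17.9% higher. At 48 h, 3 were lower (Agt, Enpep and Mme) and 1 higher (Nos3), against a background of 3.94% lower and 6.24% higher. The 1228 genes behind the 48 h background fell to between 448 and 804 without sham A, B or C or 48 h A. The median difference over the 7 members was -0.19 at 24 h and -0.73 at 48 h, and over all genes it was 0.0048 and 0.030. Under a rank product test, the kind of test that the series text names, 0 of the 7 passed in liver at 24 h and only Mme passed at 48 h, with 590 and 279 genes passing in all.

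Agt, the precursor of all angiotensins, fell in liver at 48 h. Sham livers read 13.14, 13.48 and 13.22 on arrays A, B and C, livers at 24 h read 13.21, 12.95 and 12.90, and livers at 48 h read 12.35, 12.48 and 12.30. All 3 arrays at 48 h lay below all 6 others, whereas sham and 24 h overlapped. The difference from sham was -0.26 ± 0.12 (SE) at 24 h (adjusted p = 0.15) and -0.91 ± 0.12 at 48 h, a 1.87-fold lower signal (adjusted p = 0.0082), and 48 h was lower than 24 h by 1.56-fold (log2 difference -0.64, adjusted p = 0.0081). With array weights the 24 h difference was called too (-0.43, adjusted p = 0.014). The 48 h difference passed without each of the 9 liver arrays in turn, at -0.98 to -0.81, and without liver 48 h C it was -0.87. The summed signal of 8 hepatocyte markers ran from 18.73 to 18.77 in sham liver, from 18.51 to 18.62 at 24 h and from 18.37 to 18.59 at 48 h, with Ttr and Serpinc1 called lower at 48 h; its part in the Agt difference was not tested. In homogenised tissue, fewer cells of a type and less RNA per cell cannot be told apart.

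In kidney, Agt did not pass the test against sham at either time in the fit of the 9 kidney arrays. Sham kidneys read 9.68, 8.90 and 9.16, kidneys at 24 h read 10.01, 10.59 and 10.43, and kidneys at 48 h read 9.38, 9.89 and 10.11. The 24 h arrays lay above all sham arrays and the 48 h arrays overlapped with both. The difference from sham was 1.09 (95% confidence interval 0.45 to 1.73) at 24 h and 0.54 (-0.10 to 1.18) at 48 h, and neither passed over all genes (adjusted p = 0.067 and 0.33). The 24 h difference was called under 4 of 22 alternatives and in 0 of the 9 fits that left out 1 array. The 4 were all 18 arrays in 1 fit (adjusted p = 0.017), array weights (1.26, adjusted p = 0.043), median centring (1.08, adjusted p = 0.047) and a filter at percentile 60 (adjusted p = 0.048). The kidney response exceeded the liver response by 1.36 ± 0.31 at 24 h (adjusted p = 0.0040) and by 1.45 ± 0.31 at 48 h (adjusted p = 0.0074), and both passed without each of the 18 arrays. From high to low, the order of the group means was liver sham, liver 24 h, liver 48 h, kidney 24 h, kidney 48 h and kidney sham, and the neighbours liver sham and 24 h, kidney 24 h and 48 h, and kidney 48 h and sham overlapped.

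Agtr1a fell in liver at 24 h and was back near its sham level at 48 h. Sham livers read 10.62, 11.13 and 10.93, livers at 24 h read 9.68, 9.23 and 9.20, and livers at 48 h read 10.87, 11.09 and 10.43. Every 24 h array lay below every sham and every 48 h array. The 24 h level was lower than sham by 2.88-fold (log2 difference -1.52 ± 0.22, adjusted p = 0.0025), and 48 h exceeded 24 h by 2.69-fold (1.43 ± 0.22, adjusted p = 0.0038). Both differences passed without each of the 9 liver arrays. At 48 h the difference from sham was -0.10, with a 95% interval of -0.62 to 0.43.

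In kidney the same probe set read 9.90, 10.00 and 9.86 in sham, 9.80, 9.35 and 9.94 at 24 h, and 10.10, 9.91 and 9.79 at 48 h, with overlap between all groups. The differences from sham were -0.22 (95% interval -0.59 to 0.15) and 0.02 (-0.35 to 0.39). At 24 h the responses of the organs differed by 1.31 ± 0.28 (adjusted p = 0.0030), and this passed without each of the 18 arrays; at 48 h the difference of 0.11 ± 0.28 did not pass (adjusted p = 0.86). In order of group means, liver sham and liver 48 h stood above kidney 48 h, kidney sham and kidney 24 h, and liver 24 h came last; it overlapped with kidney 24 h.

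**Figure D2:**
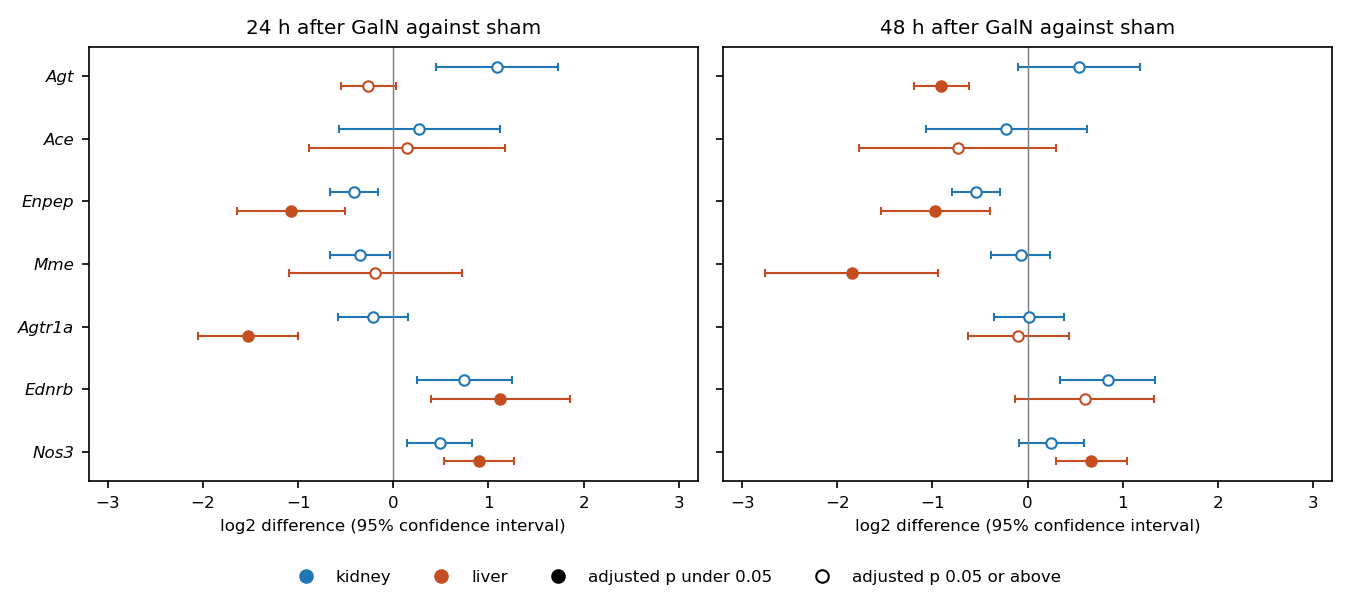
Log2 difference from sham (horizontal axis) with its 95% confidence interval for 7 tested members at 24 h (left) and 48 h (right); blue is kidney, orange is liver, and filled points have an adjusted p under 0.05 over all genes tested in that organ. Filled points are liver points: Enpep, Agtr1a, Ednrb and Nos3 at 24 h, and Agt, Enpep, Mme and Nos3 at 48 h.

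Among the peptidases, Enpep (aminopeptidase A, which trims angiotensin II to angiotensin III) was lower in liver at both times. Sham livers read 11.87, 11.83 and 11.76, livers at 24 h read 11.26, 10.41 and 10.57, and livers at 48 h read 10.53, 10.89 and 11.14. All 6 GalN livers lay below the 3 sham livers, and 24 h and 48 h overlapped. The 24 h difference was 2.11-fold lower (-1.08 ± 0.24, adjusted p = 0.014) and passed without each of the 9 arrays; the 48 h difference was 1.96-fold lower (-0.97 ± 0.24, adjusted p = 0.0497). The 48 h call sat at the threshold: leaving out any single array other than 24 h A or 48 h C ended it (adjusted p between 0.055 and 0.14), and the difference then lay between -0.998 and -0.81.

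Enpep in kidney read 13.17, 13.05 and 12.99 in sham, 12.70, 12.51 and 12.77 at 24 h, and 12.70, 12.54 and 12.34 at 48 h, so all 6 GalN kidneys lay below the sham kidneys. The differences of -0.41 ± 0.11 and -0.54 ± 0.11 did not pass (adjusted p = 0.077 and 0.052). The 48 h difference passed under 6 of 22 alternatives, among them quantile normalization (-0.50, adjusted p = 0.046), and in 0 of the 9 fits that left out 1 array. A mean over all probe sets of a gene also called it (-0.54, adjusted p = 0.048). Enpep has 1 probe set, so its own difference did not change in that fit. The response differed between kidney and liver by 0.66 ± 0.27 at 24 h (adjusted p = 0.083), which passed without liver 24 h A (0.92, adjusted p = 0.0049), and by 0.43 ± 0.27 at 48 h (adjusted p = 0.36). The summed proximal tubule markers ran from 17.83 to 17.95 in sham kidney, 17.60 to 17.71 at 24 h and 17.80 to 17.91 at 48 h. At 48 h 1 of 10 (Cubn) was called higher and 1 (Slc22a6) lower, beside 1.29% and 1.4% of all kidney genes. The part of these markers in the Enpep values was not tested.

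Mme (neprilysin, a membrane peptidase that degrades natriuretic peptides, kinins and angiotensins) was called lower in liver at 48 h and not at 24 h. Sham livers read 8.69, 8.75 and 8.67, livers at 24 h read 8.41, 8.64 and 8.49, and livers at 48 h read 5.89, 7.10 and 7.58. The 24 h arrays lay below sham without overlap, with a difference of -0.19 ± 0.39 (SE, adjusted p = 0.76). The 48 h arrays lay below all others, and their SD was 0.87, against 0.043 in sham and 0.12 at 24 h (n = 3 each). The fit shares its estimate of spread between groups, so the wide 48 h spread enters the 24 h test. That test therefore cannot decide whether the small 24 h difference is real. The 48 h level was lower than sham by 3.60-fold (-1.85 ± 0.39, adjusted p = 0.029) and lower than 24 h by 3.16-fold (-1.66 ± 0.39, adjusted p = 0.018). Leaving out any 1 of sham A, B or C, 24 h B or C, or 48 h B ended the call against sham (adjusted p between 0.051 and 0.094), and leaving out 24 h B or C ended that against 24 h (adjusted p = 0.056 and 0.052). Without liver 48 h C the difference from sham was -2.21 (adjusted p = 0.013).

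Kidney Mme read 11.31, 11.33 and 11.01 in sham, 10.66, 10.92 and 11.02 at 24 h, and 11.04, 11.31 and 11.07 at 48 h. The differences from sham of -0.35 (95% interval -0.66 to -0.04) and -0.07 (-0.39 to 0.24) did not pass (adjusted p = 0.17 and 0.83). At 48 h the kidney response exceeded the liver response by 1.78 ± 0.42 (adjusted p = 0.013), and this passed without each of the 18 arrays. It did not pass with the mean over both Mme probe sets (1.01, adjusted p = 0.092).

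Ace, which converts angiotensin I to angiotensin II, was not called in either organ at either time. Kidneys read 9.75, 9.44 and 10.43 in sham, 9.67, 10.23 and 10.54 at 24 h, and 9.10, 9.99 and 9.87 at 48 h. Livers read 5.94, 6.57 and 5.94 in sham, 6.02, 6.60 and 6.26 at 24 h, and 5.82, 6.02 and 4.39 at 48 h. Groups of this set overlapped within each organ, and the intervals were wide: the liver difference at 48 h was -0.73 (95% interval -1.77 to 0.30), and -0.22 without liver 48 h C, which held the lowest reading.

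The other probe sets of Ace, Mme and Ednrb were dimmer, and of 4 further sets 3 passed the filter in a limma fit of every named probe set. In 12 comparisons of these 3 sets with sham, 0 were called and 4 had an unadjusted p under 0.05: the second Ace set in kidney at 24 h, and the second Ednrb set in kidney at 24 h and in liver at both times. The second Ace set read 8.89, 8.89 and 9.39 in sham kidney and 9.56, 9.69 and 9.47 at 24 h, above sham without overlap, a difference of 0.51 (adjusted p = 0.11). The second Mme set averaged 3.50 ± 0.70 (SD, n = 3) in sham liver and 2.88 ± 0.27 at 48 h, near the floor on all 3 arrays at 48 h, and differed by -0.62 (adjusted p = 0.34). The second Ednrb set averaged 4.65 ± 0.17 in sham kidney, 6.09 ± 1.06 at 24 h and 5.72 ± 0.05 at 48 h, differences of 1.44 and 1.07 (adjusted p = 0.13 and 0.29). In liver that set gave 0.40 at 48 h (adjusted p = 0.11) and 0.30 at 24 h (adjusted p = 0.12), with recurring readings on all 3 arrays at 24 h, where the brightest set gave 1.12.

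**Figure D3:**
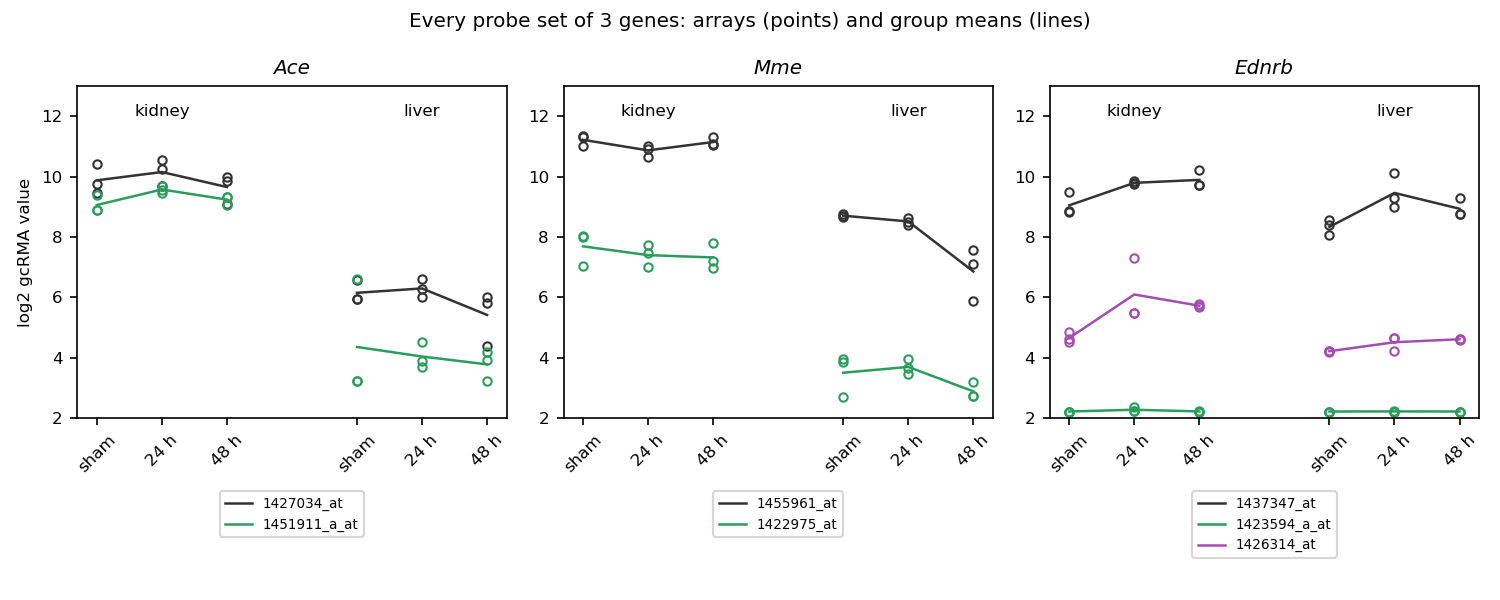
Log2 gcRMA value (vertical axis) of every probe set named for Ace, Mme or Ednrb alone; points are arrays, lines join the group means of 3 arrays, each panel has kidney on the left and liver on the right, and black is the set with the highest mean. The black Mme set drops at 48 h in liver where the dimmer Mme set averages 3.50 in sham and 2.88 at 48 h, and another Ednrb set stays at the floor.

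Endothelin-1 was not measurable in these arrays. The Edn1 set, named for the main constrictor peptide, read 2.28 on all 18 arrays, which is near the floor, so it was neither tested nor ordered, and the value gives only an upper bound on its signal. Edn3, which encodes the related peptide endothelin-3 and was named after its values were seen, lay above the floor in kidney, at 7.91 ± 0.50 (SD) in sham, 7.14 ± 0.04 at 24 h and 7.90 ± 0.22 at 48 h, and was not called against sham (-0.77 at 24 h, adjusted p = 0.11).

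Ednrb, the endothelin B receptor, was higher in liver at 24 h. Sham livers read 8.06, 8.39 and 8.55, livers at 24 h read 9.28, 8.99 and 10.11, and livers at 48 h read 8.76, 9.27 and 8.77. Both GalN groups lay above sham without overlap. At 24 h the level was 2.18-fold higher (1.12 ± 0.31, adjusted p = 0.029), and at 48 h the difference was 0.60 ± 0.31 (adjusted p = 0.28). Leaving out any 1 of sham A, B or C or of 24 h A or C ended the 24 h call (adjusted p between 0.0501 and 0.090; 0.80 without 24 h C and 1.23 without sham C), and so did using no filter (adjusted p = 0.053) or a fit of the 6 arrays alone (adjusted p = 0.054).

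Kidney Ednrb read 8.84, 8.81 and 9.49 in sham, 9.78, 9.84 and 9.75 at 24 h, and 9.73, 9.71 and 10.23 at 48 h; all 6 GalN kidneys lay above the sham kidneys. The differences of 0.75 (95% interval 0.25 to 1.25) and 0.84 (0.34 to 1.34) did not pass (adjusted p = 0.091 and 0.086). Without sham C, the highest of the sham kidneys, the 48 h difference was 1.06 and passed (adjusted p = 0.044). The responses of kidney and liver differed by -0.38 ± 0.38 at 24 h and 0.24 ± 0.38 at 48 h, and neither difference passed (adjusted p = 0.51 and 0.75). The group means ran from kidney 48 h through kidney 24 h, liver 24 h, kidney sham and liver 48 h to liver sham, and each overlapped with the next except liver 48 h and liver sham.

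Nos3, endothelial nitric oxide synthase, was dim in both organs. Sham livers read 2.78, 2.59 and 2.88, all near the floor, livers at 24 h read 3.46, 3.46 and 4.03, and livers at 48 h read 3.37, 3.43 and 3.46. The GalN groups lay above sham without overlap. The log2 differences were 0.90 ± 0.16 at 24 h (adjusted p = 0.0050) and 0.67 ± 0.16 at 48 h (adjusted p = 0.041). No fold is given, because 2 of the 3 readings at 24 h and 1 of the 3 at 48 h recur identically on another array and the sham values give only a bound. The 24 h difference passed without each of the 9 arrays; the 48 h call ended when any array other than 24 h A or C was left out (adjusted p between 0.052 and 0.13).

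Kidney Nos3 read 3.44, 3.47 and 3.72 in sham, 4.35, 3.79 and 3.96 at 24 h, and 3.73, 3.85 and 3.80 at 48 h, all above the near-floor range. The differences from sham were 0.49 (95% interval 0.15 to 0.83) and 0.25 (-0.09 to 0.59), and neither passed (adjusted p = 0.099 and 0.41). The groups of GalN kidneys lay above sham without overlap, although at 48 h the lowest GalN kidney was only just above the highest sham kidney. Kidney and liver responses differed by -0.41 ± 0.22 and -0.42 ± 0.22 (adjusted p = 0.19 and 0.25).

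Markers of the vessel wall and of macrophages were also higher in liver at 24 h. The background for these counts is 17.9% of all 12071 liver genes called higher at 24 h and 6.24% at 48 h. Against sham, 6 of 12 endothelial markers were called higher and 0 lower, and their summed level ran from 11.82 to 12.56, against 11.21 to 11.40 in sham and 11.18 to 11.77 at 48 h; 0 of the 12 were near the floor on every array of a liver group. Of 7 sinusoidal endothelial markers, 5 were called higher, with a summed level of 11.75 to 12.81 against 10.94 to 11.14 in sham and 11.41 to 11.84 at 48 h, where 2 were called higher. Of 11 tested stellate, pericyte and smooth muscle markers, 4 were higher (13.09 to 13.22 summed at 24 h, 12.28 to 12.63 in sham and 12.19 to 12.87 at 48 h), with Des and Cnn1 near the floor throughout. Of 9 macrophage markers, 6 were higher at 24 h and 3 at 48 h (14.38 to 14.58 and 14.05 to 14.27 summed, against 12.95 to 13.55 in sham). Over the 9 liver arrays, the 3 genes most like Ednrb were Gdf10 (0.978), Supt16 (0.976) and Cdh5 (0.965), and of these Cdh5 is on the endothelial list. The part of these markers in the member differences in liver was not tested.

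Kidney showed 0 called members in all 3 comparisons by limma and 0 by the rank product test. The backgrounds were 2.21% of 12003 genes higher and 3.1% lower at 24 h, 1.29% higher and 1.4% lower at 48 h, and 0.958% higher and 0.65% lower at 48 h against 24 h. Leaving out single arrays moved these backgrounds by over 1.5 times: the genes called fell from 637 to as few as 15 at 24 h (without sham B), from 323 to as few as 29 at 48 h (without sham A) and from 193 to as few as 1 between the times (without 48 h A). At an unadjusted p under 0.05 there were 5 members at 24 h (Agt, Ednrb and Nos3 above sham, Enpep and Mme below), 2 at 48 h (Ednrb above, Enpep below) and 0 between the GalN times. Of all kidney genes, 23.8%, 19.4% and 18.3% had such a p in these comparisons. Median centring of the arrays called 2 members at 24 h, Agt and Enpep (-0.43, adjusted p = 0.034 for Enpep). Array weights called 2 members at 48 h, Enpep and Ednrb. In kidney, 0 of 12 endothelial markers were called against sham at either time, with a summed level of 12.35 to 12.52 in sham, 12.62 to 13.04 at 24 h and 12.70 to 12.92 at 48 h; at an unadjusted p under 0.05 there were 2 and 4. Among 8 distal nephron markers, 2 (Scnn1g and Atp6v1b1) were called higher and 1 (Atp6v0d2) lower at 24 h; their part in the kidney values was not tested.

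Between 24 h and 48 h in liver, 1 member was higher at 48 h (Agtr1a) and 2 were lower (Agt and Mme), while 14.6% of all genes were higher and 13.1% lower. The comparison shares its 24 h arrays with the first and its 48 h arrays with the second comparison against sham, so the 3 sets of values are not independent. The organs' responses differed for 2 of 7 members at 24 h (Agt and Agtr1a) and for 2 at 48 h (Agt and Mme), beside 30.3% and 13.1% of all genes, and in all 4 cases the kidney value was the higher.

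The wider vasoactive pathways were read from 6 lists. In kidney, 0 of their genes were called against sham at either time by limma. The shares over all kidney genes were 2.21% higher and 3.1% lower at 24 h, and 1.29% higher and 1.4% lower at 48 h. Uncalled differences were not all small. Arg2 of the nitric oxide list, named after its values were seen, read 3.87 ± 0.36 (SD) in sham and 6.61 ± 0.72 at 24 h (6.68-fold, adjusted p = 0.065). In the other direction, Edn3 differed by -0.77 at 24 h, as given above. With members included, and beside 23.8% and 19.4% of all kidney genes, unadjusted p-values under 0.05 at 24 h and 48 h numbered 4 and 4 of 14 tested renin-angiotensin genes, 2 and 2 of 5 endothelin genes, 3 and 3 of 16 nitric oxide and cGMP genes, 2 and 1 of 5 natriuretic peptide and kinin genes, 4 and 1 of 12 prostanoid genes, and 2 and 2 of 9 adenosine, vasopressin, adrenomedullin and adrenergic genes.

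The backgrounds for the liver counts of these lists are those above, 17.9% of all genes higher and 15% lower at 24 h, and 6.24% higher and 3.94% lower at 48 h. In liver, the non-member genes of the renin-angiotensin list gave 1 call in 9 at each time: Atp6ap2, the prorenin receptor, rose 1.90-fold at 24 h (12.06 ± 0.11 to 12.98 ± 0.37, SD, adjusted p = 0.0074) and 1.79-fold at 48 h (adjusted p = 0.031). Of 4 non-member endothelin genes, Ece1, the endothelin-converting enzyme, fell 2.16-fold at 24 h (adjusted p = 0.012) and was not called at 48 h (-0.40, adjusted p = 0.37). Of 15 non-member nitric oxide genes, 3 fell at 24 h and 0 rose. Ddah1, which breaks down an endogenous inhibitor of nitric oxide synthase, was 4.83-fold lower (adjusted p = 0.0098). Gch1, which begins the synthesis of the synthase cofactor tetrahydrobiopterin, was 2.82-fold lower at 24 h and 3.07-fold higher at 48 h than at 24 h (adjusted p = 0.0099 and 0.0085). Asl, the arginine-forming lyase, was 2.64-fold lower (adjusted p = 0.047). At 48 h 0 of the 15 were called against sham, and 4 of 16 with Nos3 had an unadjusted p under 0.05, as did 25.3% of all liver genes.

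Natriuretic peptide and kinin genes gave 3 calls among 5 in liver at 24 h. Klkb1, plasma prekallikrein, fell 6.05-fold (adjusted p = 0.0011) and rose 3.11-fold from 24 h to 48 h (adjusted p = 0.0076). Npr2, the receptor for C-type natriuretic peptide, fell 3.12-fold (adjusted p = 0.030), and Npr3, the clearance receptor, rose 1.77-fold (adjusted p = 0.049). Among 10 prostanoid genes, Hpgd, which inactivates prostaglandins, fell 4.36-fold at 24 h (adjusted p = 0.0017) and rose 5.44-fold from 24 h to 48 h (adjusted p = 0.0013), and Ptgfr, the prostaglandin F receptor, rose at least 3.14-fold at 24 h (adjusted p = 0.027). At 48 h 0 genes of either list were called against sham; 3 of 5 and 2 of 10 had an unadjusted p under 0.05, beside the same 25.3% of all genes.

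Of 8 tested adenosine, vasopressin, adrenomedullin and adrenergic genes in liver, 3 rose and 1 fell at 24 h, and 2 rose at 48 h. Adm, which encodes the dilator adrenomedullin, rose at least 4.50-fold at 24 h (3.85 ± 0.59 to 6.02 ± 0.60, adjusted p = 0.017) and was lower again at 48 h than at 24 h by at least 3.81-fold (adjusted p = 0.031). Among the receptor partners of its family, Ramp2 rose 2.14-fold at 24 h (adjusted p = 0.016), and Ramp1 rose 1.88-fold at 24 h and 2.22-fold at 48 h (adjusted p = 0.045 and 0.046). Nt5e, which forms adenosine from AMP, rose 2.42-fold at 48 h (adjusted p = 0.010) with a 24 h difference of 0.09. The gene that fell was Adra1b, an adrenergic receptor, by at least 4.25-fold at 24 h (adjusted p = 0.024); it was named after its values were seen.

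**Figure D4:**
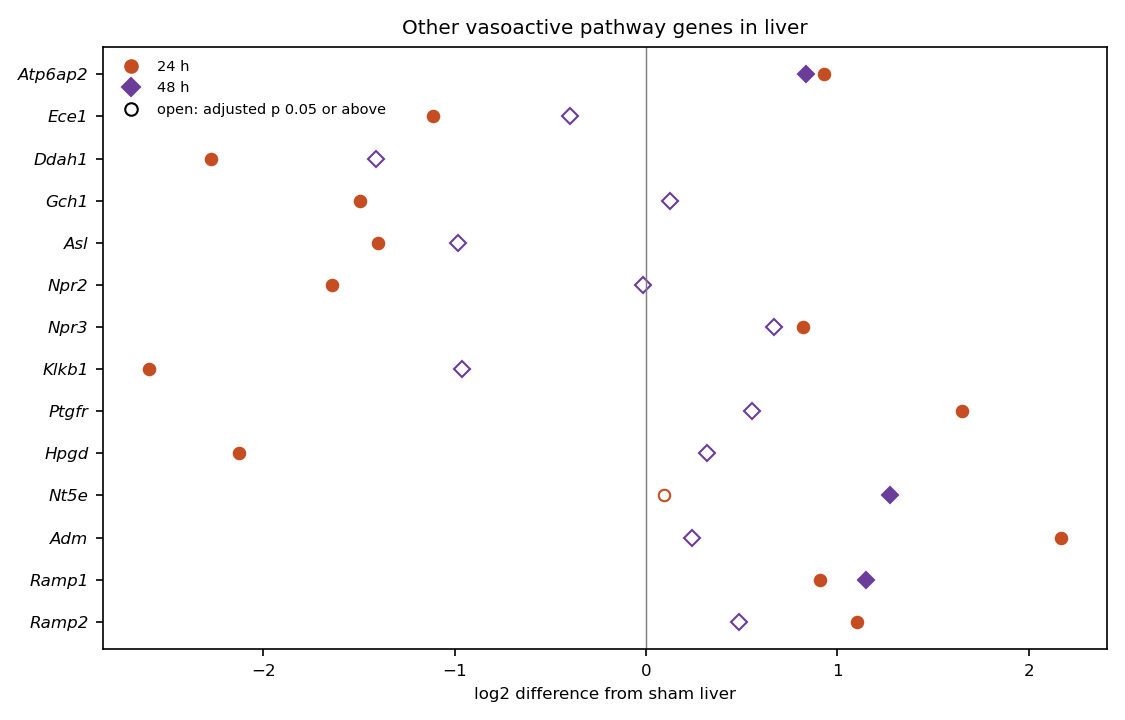
Log2 difference from sham liver (horizontal axis) of 14 non-member pathway genes called in liver (Adra1b is not drawn); orange circles are 24 h, purple diamonds 48 h, filled where the adjusted p is under 0.05. At 24 h the fall of Klkb1 (-2.60) and the rise of Adm (2.17) mark the ends of the range, and 3 genes are filled at 48 h.

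As a description of pattern, the 3 genes with the highest Pearson correlation to each called member were taken over the 9 liver arrays, which share their 3 group means and their normalization. Agt was most like Sardh (0.984), Itih1 (0.974) and Dmgdh (0.973), and Enpep was most like Pdha1 (0.986), Prodh (0.985) and Fggy (0.973). Mme was most like Hsd11b1 (0.97), Ehd2 (0.969) and Agmo (0.967), and Agtr1a was most like Mgrn1 (0.984), Pls3 (0.982) and Phka2 (0.982). Ednrb was most like Gdf10 (0.978), Supt16 (0.976) and Cdh5 (0.965), and Nos3 was most like Plscr1 (0.975), Snrpb (0.969) and Kifc3 (0.968).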

How the data were processed

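Total RNA of kidney and liver was hybridised to Affymetrix GeneChip mouse genome arrays, and the authors preprocessed them with affy and gcRMA, per the labels' design text; versions are not given in the sources used here. The deposited table holds log2 values of 45101 probe sets. GcRMA sets many dim sets to identical low values, which compresses differences there.

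Genes were named from a platform annotation (34945 sets with 1 gene, 932 with several, 9160 with none, 64 control sets). A gene entered a fit when it exceeded the array median on at least 3 arrays. limma 3.58.1 in R 4.3.3 was fitted with a mean-variance trend to 9 arrays per organ (12003 genes in kidney, 12071 in liver) and to 18 arrays for contrasts between organs (12467), with Benjamini-Hochberg adjustment over all genes tested and a threshold of 0.05. All 9 members were described; of each pathway list and organ, up to 4 further called genes with the smallest p were named, of each marker list up to 3, and for each called member the 3 genes most like it. Of 179 list entries, 159 matched a probe set. The fits were tested on simulated data. A signal near the floor gives only a bound. The members and lists were chosen with earlier results of these data known. Alternatives were other filters, normalizations, fits and tests, and leaving out each array. Scan dates were not used here.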

Additional observations from a re-analysis of the deposited data

Results flagged for a closer look

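The kidney and liver responses of 3 members differed by the test of the difference itself, which is the reason they are listed. For Agt the kidney response exceeded the liver response by 1.36 at 24 h (1.09 in kidney, -0.26 in liver) and by 1.45 at 48 h (0.54 and -0.91). For Agtr1a it did so by 1.31 at 24 h (-0.22 and -1.52), and for Mme by 1.78 at 48 h (-0.07 and -1.85). Within the organs, the values called against sham were the liver values of Agtr1a at 24 h and of Agt and Mme at 48 h.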

How the results depend on the processing

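Of 1512 values of 63 member differences under alternatives, 1401 kept their direction and side of the threshold; 65 lost their call, 19 gained one and 27 changed sign, and 0 of the sign changes were in the 22 called differences. Kidney counts of called members, 0 as reported, were 1 at 24 h with a filter at percentile 60, array weights or all 18 arrays in 1 fit, and 2 with median centring. At 48 h they were 1 with percentile 60, the mean of all probe sets, quantile normalization, median centring or a robust trend, and 2 with array weights. The liver count at 48 h, 4 as reported, was 1 with no filter, 2 with median centring and 1 by rank product, and rank product gave 0 at 24 h and 0 for 48 h against 24 h. The differences between organs numbered 4 at both times with array weights and 1 at 48 h with the mean of all probe sets. Leaving out 1 array gave 0 to 0 called members for kidney at 24 h and between the GalN times, 0 to 1 at 48 h, 3 to 4 for liver at 24 h, 1 to 4 at 48 h, 2 to 3 between the times, 2 to 3 and 2 to 2 between organs at 24 h and 48 h, and 6 to 7 in sham.

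Same-letter arrays had deviations correlated above 0.1 in 1 of 9 kidney pairs, 0 of 9 liver pairs and 2 of 9 kidney-liver pairs. The last 2 were sham A (0.222) and sham C (0.253). Organs taken from the same mice were not excluded. With the array letter as a replicate block, 2 members were called in liver at 48 h and 605 genes in all against 1228, and in kidney 143 against 637 genes at 24 h, 49 against 323 at 48 h and 4 against 193 between the times.

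The sign changes were in differences that were not called, of which the organ difference of Ednrb at 24 h (-0.38 as reported) and Ace in kidney at 48 h (-0.22) were the farthest from 0. With array weights, Ace in kidney at 48 h was 0.025, Agtr1a there -0.0093, Ace in liver at 24 h -0.10 and Enpep in liver at 48 h against 24 h -0.041. With quantile normalization, Mme in kidney at 48 h was 0.0086, Ace in liver at 24 h -0.0080 and Enpep in liver at 48 h against 24 h -0.036. With the mean of all probe sets, Ednrb in kidney at 48 h against 24 h was -0.11, Ace in liver at 24 h -0.085, Mme in liver at 24 h 0.0012 and the organ difference of Ednrb at 24 h 0.27. Leaving out 1 array gave -0.44 to 0.055 for Ace and -0.064 to 0.087 for Agtr1a in kidney at 48 h, -0.071 to 0.19 for Ednrb in kidney between the times, -0.0097 to 0.35 for Ace in liver at 24 h, -0.24 to 0.086 for Agtr1a in liver at 48 h, -0.061 to 0.36 for Enpep in liver between the times, -0.087 to 0.41 for the organ difference of Ace at 24 h and -0.068 to 0.26 for that of Agtr1a at 48 h. The cause was not tested.

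Counts over all genes ranged under other settings from 79 to 918 for kidney at 24 h, 49 to 1245 at 48 h (323 as reported), 590 to 5915 for liver at 24 h (3966), 279 to 4728 at 48 h and 464 to 4733 between the times (3355). Leaving out 1 array gave 15 to 669 for kidney at 24 h, 29 to 469 at 48 h and 1 to 162 between the times, and 2834 to 4652, 448 to 1599 and 2581 to 3466 for liver. Counts moved by over 1.5 times without sham A, B or C, 24 h B or 48 h B for kidney at 24 h, without any sham or 48 h array at 48 h, without sham A or B, 24 h B or C or any 48 h array between the times, and without sham A, B or C or 48 h A for liver at 48 h. The share of calls that were higher was 41.6% for kidney at 24 h and 52% after quantile normalization. After median centring it was 70.4% against 59.6% for kidney between the times, 50.4% against 61.3% for liver at 48 h, 49.4% against 35.8% for the organ difference at 48 h (45.9% with quantile normalization), and 46.4% against 60.3% for sham kidney against liver (47.9% with quantile normalization), where it moved the median of all genes from 0.050 to -0.17.

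With 3 arrays a group, intervals about 2 log2 units wide for Ace and Mme in liver leave moderate differences undetectable. Sham tissue of 48 h was not compared. Readings near the floor limit Nos3 in liver and all of Edn1.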
